A study of Drosophila melanogaster with 16 samples.

Results

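The wing selector and compartment genes are the transcription factor genes that tell cells of the larval wing disc which part of the future wing and body wall they form. The 10 genes described here are vestigial (vg), scalloped (sd), apterous (ap), nubbin (nub), pdm2, Distal-less (Dll), engrailed (en), invected (inv), homothorax (hth) and teashirt (tsh), taken by symbol from 24254 genes annotated on BDGP6. For each gene, every Psi, RNA Pol and Myc peak that overlapped it or lay within 10 kb of it was listed. Targeted DamID (TaDa) fuses a protein to the bacterial DNA adenine methylase Dam, which marks GATC sites near the places that the protein contacts. Wing discs of female larvae, labelled as mid-third instar and by the growth notes at the second instar when induction began, expressed Dam fused to Psi, an RNA- and DNA-binding protein of the FUBP family, to Polr2F (a subunit common to the RNA polymerases, also named RpII18 and here RNA Pol) or to the growth regulator Myc, in 3 samples per fusion, beside 7 Dam-only samples. All 16 samples carried the same sd-GAL4 driver with temperature-sensitive GAL80, and all came from egg lays of at most 4 h at 25°C followed by 7 days at 18°C. Induction at 29°C for 24 h was thus directed to cells in which sd-GAL4 is active. The Psi and Polr2F fusions were inserted at the attP2 site, whereas the Myc fusion line is not described in the sources used here. Dam-only sample 1 was the control of 2 Psi samples and of 1 RNA Pol sample, and the Myc samples had Dam-only samples of their own.

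Selector genes act in combination. Sd is the TEAD protein that binds DNA, and Vg is its coactivator in the wing pouch. Ap is a LIM-homeodomain protein that gives dorsal identity, and En and Inv are homeodomain proteins of the posterior compartment. Nub and Pdm2 are POU proteins of the pouch and hinge, and Dll is a homeodomain protein of the distal wing and leg. Hth is a homeodomain protein that brings its partner Exd into the nucleus in hinge and notum cells, and Tsh is a zinc finger protein of the same proximal region. Because sd-GAL4 reads out the sd locus, sd is a member of the set and the source of the driver at once.

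A few sequences are shown because their sites carried a peak of every list, or because they lie at a start site that RNA Pol marked. They were read from the RefSeq sequence of the same BDGP6 assembly, on the strand of the gene and from 5′ to 3′. The first 3 windows are the central 300 bp of a stretch shared by a Psi, an RNA Pol and a Myc peak. There were 5 such stretches. The central window of the other one at sd held no TEAD letters and is not printed because it overlaps exons, and the one at Dll is not printed, so the windows shown are not a sample of all 5. They lie past nub in Ref2, a gene on the other strand that overlaps the 3′ part of nub and runs beyond it (chr2L:12635274-12635573), in an intron of hth (chr3R:10580129-10580428, minus strand) and in an intron of sd (chrX:15807583-15807882). Capitals mark GGAATG, the letters read by Sd and other TEAD proteins, or CATTCC, the same letters on the other strand, and GATC, the Dam site. The TEAD letters stood at position 151 of the nub window, at position 142 of the hth window and at position 8 of the sd window, counted from 1 at the 5′ end. The GATC sites stood at position 255 of the hth window and at position 195 of the sd window. A match of letters is a description of the window and not a binding site.
nub shared site: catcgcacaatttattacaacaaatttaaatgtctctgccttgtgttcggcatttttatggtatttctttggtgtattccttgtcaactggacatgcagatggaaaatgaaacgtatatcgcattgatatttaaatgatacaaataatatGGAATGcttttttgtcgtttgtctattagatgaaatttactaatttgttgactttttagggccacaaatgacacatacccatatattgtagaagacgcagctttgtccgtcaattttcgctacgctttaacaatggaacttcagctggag
hth shared site: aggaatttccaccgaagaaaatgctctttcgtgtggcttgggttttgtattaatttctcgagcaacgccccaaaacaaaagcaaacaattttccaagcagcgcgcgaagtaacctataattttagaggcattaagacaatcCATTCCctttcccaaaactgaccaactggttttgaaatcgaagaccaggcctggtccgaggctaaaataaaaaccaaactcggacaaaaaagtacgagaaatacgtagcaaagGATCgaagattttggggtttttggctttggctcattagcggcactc
sd shared site: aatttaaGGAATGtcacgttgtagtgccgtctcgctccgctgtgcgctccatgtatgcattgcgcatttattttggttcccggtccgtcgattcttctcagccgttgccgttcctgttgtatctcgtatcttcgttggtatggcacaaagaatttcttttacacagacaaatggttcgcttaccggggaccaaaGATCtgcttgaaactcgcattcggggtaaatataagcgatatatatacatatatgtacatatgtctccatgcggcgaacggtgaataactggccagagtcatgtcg

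The second set is the 250 bp before the outermost annotated start of nub (chr2L:12587375-12587624) and tsh (chr2L:21828343-21828592), the stretches that an RNA Pol peak covered at those starts. An RNA Pol peak also held the outermost start of Dll, whose window is not printed. The nub window held a GATC site at position 208, in capitals. Of the searched letters (given with the motif counts) neither window held another.
nub upstream: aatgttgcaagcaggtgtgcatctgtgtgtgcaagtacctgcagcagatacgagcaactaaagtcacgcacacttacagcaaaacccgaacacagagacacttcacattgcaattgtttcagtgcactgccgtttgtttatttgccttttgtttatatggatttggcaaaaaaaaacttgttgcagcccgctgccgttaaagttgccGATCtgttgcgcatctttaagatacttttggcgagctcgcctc
tsh upstream: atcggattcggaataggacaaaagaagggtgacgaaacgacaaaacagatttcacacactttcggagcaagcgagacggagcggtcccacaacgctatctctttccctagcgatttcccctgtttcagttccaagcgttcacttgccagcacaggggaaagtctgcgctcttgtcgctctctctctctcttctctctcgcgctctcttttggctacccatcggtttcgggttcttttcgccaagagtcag

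Psi lay on nearly the whole gene set, which was chosen with earlier results of these data known. With the limit of the study, which calls a gene bound by a peak no farther than 1 kb away, Psi bound 9 of the 10 genes (all but tsh), against 6.78% of all annotated features, 7.92% of protein-coding genes, 18.7% of protein-coding genes at least as long as en, the shortest of the 10 at 4.21 kb, and 34.8% of those at least as long as the median of the set, 22.3 kb. RNA Pol bound 7 (vg, sd, nub, Dll, inv, hth and tsh), against 10.9%, 13.6%, 25.8% and 35.6% of the same classes. Myc bound 5 (sd, ap, Dll, inv and hth), against 14.6%, 19.2%, 30.2% and 36.9%. The 4 genes bound in every list were sd, Dll, inv and hth, against 3.69% of protein-coding genes and 19.5% of those at least as long as the median of the set. Psi and RNA Pol share a Dam-only sample, which bears on any site that both lists hold. Because the lists were called on the mean of 3 samples, no value has a replicate error and no test between the proteins can be made. Wing discs were collected, and Dam was directed to those of their cells in which sd-GAL4 is active. Contact in few of these cells and weak contact in many cannot be told apart.

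**Figure D1:**
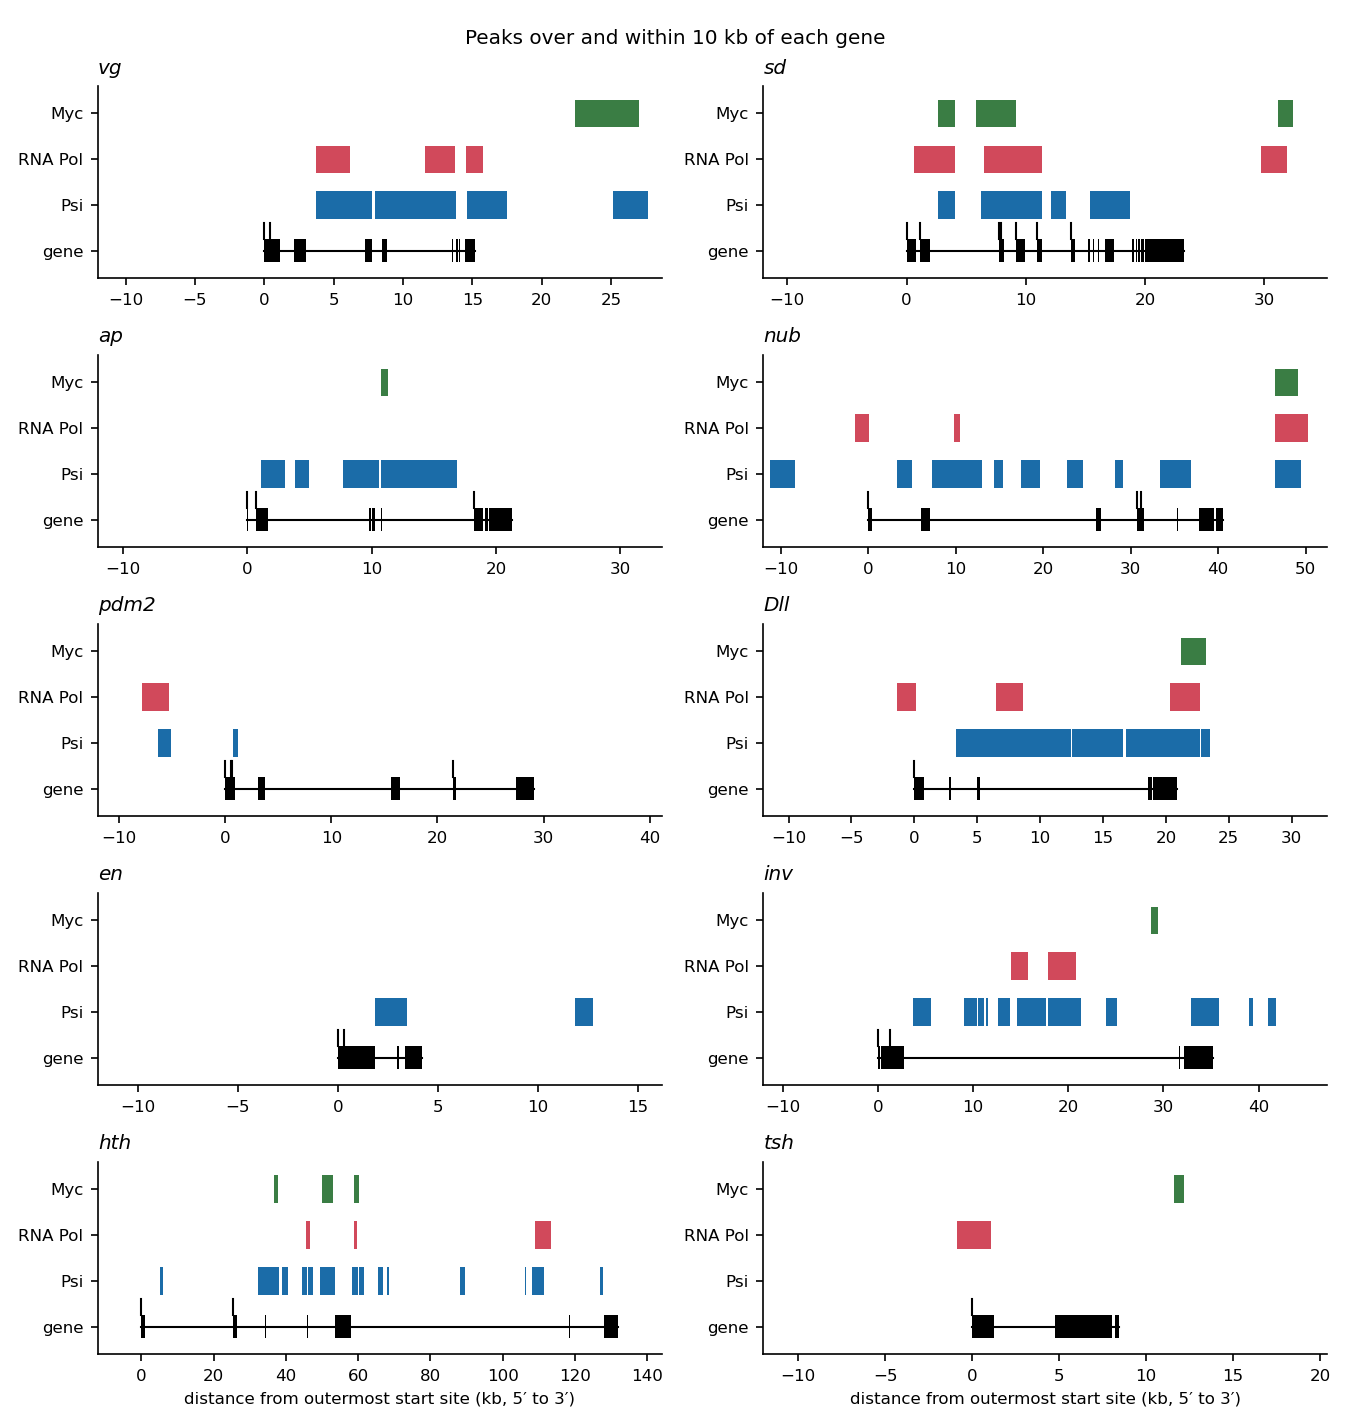
Peaks of Psi (blue), RNA Pol (red) and Myc (green) over each gene and within 10 kb of it, against the distance in kb from the outermost annotated start; black boxes are exons of all transcripts and upright ticks are annotated starts. Psi peaks fill much of vg, sd, ap, nub, Dll, en and inv, are scattered along hth and are absent at tsh, and RNA Pol peaks sit over the outermost start at nub, Dll and tsh.

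With the wider limit of 10 kb, Psi stayed at 9 genes, RNA Pol gained pdm2 (8 genes) and Myc gained vg, nub and tsh (8 genes). The shares of protein-coding genes were 21.5%, 32.4% and 43.1%. They are of genes of all lengths, and long genes were not counted apart at this limit. In all, 54 of the 1710 Psi peaks (3.16%), 19 of the 1568 RNA Pol peaks (1.21%) and 12 of the 1951 Myc peaks (0.615%) lay within 10 kb of a gene of the set. These peaks held 4.01% of all bases in Psi peaks, 1.43% of those in RNA Pol peaks and 0.739% of those in Myc peaks. Of them, 47 Psi, 16 RNA Pol and 7 Myc peaks overlapped the gene itself. At the edge of the limit, a Psi peak 9.94 kb from vg (score 2.11) was inside, whereas an RNA Pol peak 10.7 kb from vg (1.18), a Psi peak 10.2 kb from en (2.13), a Psi peak 10.4 kb from pdm2 (2.05) and a Myc peak 10.9 kb from sd (4.38) were outside. The authors' peak caller gave every peak a score and an FDR. The formula of the score is not given in the sources used here, so scores rank peaks within their own list only.

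The peaks at these genes were of ordinary height. The 54 Psi peaks had a median score of 1.90 (1.34 to 2.47), against 1.84 over the whole list, and 32 of them reached the median of the list. The 19 RNA Pol peaks had a median score of 1.17 (0.910 to 1.74) against 1.24, and 9 reached it. The 12 Myc peaks had a median score of 2.68 (1.53 to 4.17) against 2.97, and 4 reached it. The share of each gene that these peaks covered is given after the single genes.

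**Figure D2:**
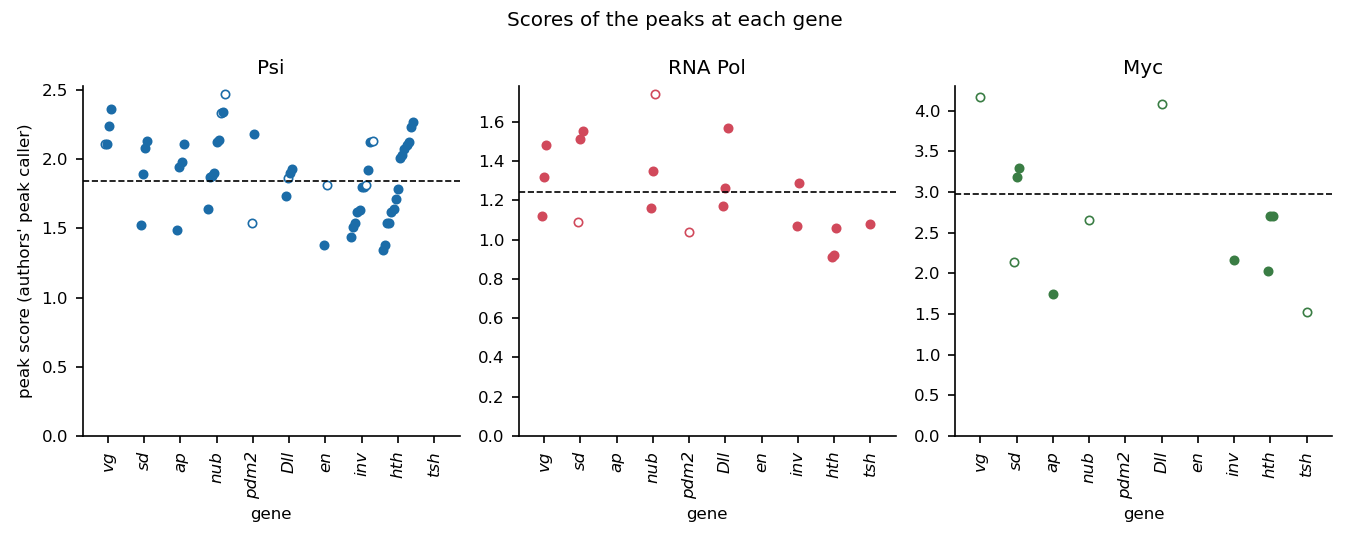
Score of each peak, as given by the authors' peak caller, by gene and list; filled points are peaks that overlap the gene, open points are peaks within 10 kb of it, and the dashed line is the median of the whole list (1.84 for Psi, 1.24 for RNA Pol and 2.97 for Myc). The scales of the 3 panels are not comparable, and points lie on both sides of each line.

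vg lies on the plus strand of chromosome 2R from 12884201 to 12899385 (FBgn0003975, 15.2 kb). Psi covered 69.0% of it with 3 peaks, and the start of the gene lay outside them. The first Psi peak (12887930 to 12891958, score 2.11) had 87.8% of its bases in intron 2 of the transcript with the longest coding sequence, by which introns are numbered here. The next (12892161 to 12898048, 2.24) had 79.4% in intron 4, and the last (12898821 to 12901725, 2.36) ran past the 3′ end. The last also overlapped the long non-coding RNA gene CR46237. RNA Pol marked the same 3 stretches with narrower peaks, at 12887930 to 12890359 (1.12), 12895779 to 12897939 (1.48) and 12898760 to 12900003 (1.32). The first RNA Pol peak began at the same GATC site as the first Psi peak, and the 2 intronic RNA Pol peaks lay wholly inside Psi peaks. Introns of vg are known for the boundary and quadrant enhancers of the wing. Their positions are not in the files, so whether the peaks lie on them was not tested. Myc had no peak in vg, and its nearest one began 7.22 kb past the 3′ end (12906606 to 12911242, 4.17), where it ran into the outlying Psi peak. That Myc peak overlapped the long non-coding RNA gene CR44461.

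sd lies on chromosome X from 15804370 to 15827682 (FBgn0003345, plus strand, 23.3 kb) and has 22 annotated transcripts with 7 distinct starts. It carried the largest covered share of the set in both the RNA Pol list (35.8%) and the Myc list (20.5%), beside 48.1% in Psi peaks. At one intronic stretch, 2.63 to 4.09 kb from the outermost start, the Psi peak (2.08) and the Myc peak (3.18) had identical ends, 15807003 and 15808463, and the RNA Pol peak (15804981 to 15808463, 1.55) ended at the same site. This is the stretch of the sd window printed above. All the peaks there also overlapped the long non-coding RNA gene CR44384. At another, 6.46 to 9.18 kb from the outermost start, the lists overlapped again (Psi 1.89, RNA Pol 1.51, Myc 3.30). That Psi peak (15810588 to 15815695) held 4 of the 7 annotated starts. The RNA Pol peak there (15810829 to 15815695) held the same number, and the Myc peak (15810241 to 15813552) held 2. These peaks also reached CG8509, a gene nested within sd. Farther along, Psi alone marked 15816519 to 15817774 (2.13) and 15819748 to 15823127 (1.52). Downstream, past the 3′ end, RNA Pol (1.09) and Myc (2.14) peaks lay 6.42 kb and 7.89 kb away, the first reaching into the clathrin heavy chain gene Chc. These downstream peaks overlapped the long non-coding RNA gene CR32582.

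Where in sd the driver transgene is inserted is not given in the sources used here. Dam-only and fusion samples alike carried it, and its part in the peaks at sd was not tested. Without sd, a count added after the values were seen, Psi bound 8 of the remaining 9 genes, RNA Pol 6 and Myc 4.

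ap lies on the minus strand of chromosome 2R from 5706202 to 5727525 (FBgn0267978, 21.3 kb). Psi covered 56.6% of it with 4 peaks that ran from 1.09 to 16.9 kb downstream of the start. From the start onwards their scores were 1.49, 1.94, 1.98 and 2.11, and the last of these was also the widest (5710660 to 5716786), with 97.7% of its bases in intron 4. No RNA Pol peak lay within 10 kb, and the nearest was 24.7 kb away with a score of 1.34. One low Myc peak (5716207 to 5716786, 1.75), which 93.0% of the Myc list outscored, lay inside the widest Psi peak and ended at the same GATC site. ap and en were the 2 genes with a Psi peak and no RNA Pol peak within 10 kb.

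nub lies on the plus strand of chromosome 2L from 12587625 to 12628135 (FBgn0085424, 40.5 kb). It carried 7 Psi peaks that covered 41.8% of it, with scores from 1.64 to 2.34, and all but one lay wholly in introns. The last 3 of the 7 also lay on Ref2. The highest of the 7, 12594919 to 12600675 (2.34), lay in intron 2 outside Ref2 and spanned 18 GATC sites. Only 11 protein-coding genes of 13945 carried more Psi peaks. RNA Pol marked the start itself (12586130 to 12587736, 1.35) and a stretch inside that highest Psi peak (12597449 to 12598149, 1.16). No Psi or Myc peak lay on the RNA Pol peak at the start. Beyond the 3′ end, within Ref2, all lists began a peak at the same GATC site, 12634124. This is the shared nub site printed above, and it held the highest Psi score (2.47) and the highest RNA Pol score (1.74) of the whole set, with a Myc score of 2.65. Only 2.34% of Psi peaks and 6.06% of RNA Pol peaks scored higher. It lay 5.99 kb past nub, and peaks do not show which gene a site serves.

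pdm2, the paralog of nub, lies on the plus strand of chromosome 2L from 12657165 to 12686306 (FBgn0004394, 29.1 kb). A single Psi peak of 479 bp (12657889 to 12658367, 2.18) lay 0.724 kb downstream of its start and covered 1.64% of the gene, the smallest share of the 9 genes with a Psi peak. Upstream, a Psi peak (12650839 to 12652057, 1.54) and an RNA Pol peak (12649300 to 12651857, 1.04) overlapped at 5.11 and 5.31 kb from the gene. Myc had no peak within 10 kb. The paralogs thus had 7 against 1 Psi peaks, 2 against 0 RNA Pol peaks and no Myc peak within either gene. The 29.0 kb between them held 4 Psi peaks (2.47, 1.79, 2.05 and 1.54 in the order from nub to pdm2), 3 RNA Pol peaks (1.74, 1.23 and 1.04) and 1 Myc peak (2.65).

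Dll lies on the plus strand of chromosome 2R from 24814822 to 24835667 (FBgn0000157, 20.8 kb). It was the gene most fully covered by Psi, at 82.7% of its length. From 3.33 kb downstream of the start to past the 3′ end, 4 Psi peaks followed one another with small gaps: 24818155 to 24827273 (1.90), 24827359 to 24831444 (1.73), 24831642 to 24837534 (1.93) and 24837651 to 24838349 (1.86). The first was the widest peak of the set at 9119 bp. The widest peak of the whole Psi list measured 10522 bp. Their scores lay close to the median of the list, 1.84. RNA Pol marked the start (24813407 to 24814967, 1.17), a stretch of intron 3 inside the widest Psi peak (24821283 to 24823472, 1.57) and the 3′ end (24835131 to 24837534, 1.26). No Psi or Myc peak lay on the RNA Pol peak at the start. The third Psi peak and the RNA Pol peak at the 3′ end stopped at the same GATC site. Myc marked only the 3′ flank (24836004 to 24838033), 0.336 kb past the gene, with a score of 4.08 that 10.8% of the Myc list exceeded.

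en and inv are neighbouring paralogs on chromosome 2R, with their 3′ ends facing each other 14.3 kb apart. inv (FBgn0001269, plus strand, 11474465 to 11509695, 35.2 kb) carried 9 Psi peaks that covered 44.03% of it. Their scores ran from 1.44 to 2.12, and 8 of the 9 lay wholly in intron 1, its long intron. The highest (11492331 to 11495864, 2.12) shared its start with an RNA Pol peak (11492331 to 11495318, 1.29). A further RNA Pol peak lay at 11488425 to 11490250 (1.07), and a Myc peak at 11503192 to 11503921 (2.16) overlapped neither. en (FBgn0000577, minus strand, 11524006 to 11528210, 4.21 kb) carried one Psi peak (11524765 to 11526372) that covered 38.2% of it. Its score of 1.38 was low, since 98.1% of the Psi list scored higher, and its FDR was 0.00341. No RNA Pol and no Myc peak lay within 10 kb of en. Between the paralogs stood 2 Psi peaks, 11513475 to 11513849 (2.13) and 11515447 to 11516329 (1.81), and the latter lay within 10 kb of both genes.

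hth lies on the minus strand of chromosome 3R from 10507561 to 10639568 (FBgn0001235) and at 132 kb is the longest gene of the set. It carried 15 Psi peaks, and only Mur2B (19) and br (17) of 13945 protein-coding genes carried more, with heca level at 15. The peaks covered 26.4 kb or 19.99% of hth, and by this share it ranked 41 of 907 protein-coding genes of at least 22.3 kb. By kb covered it ranked 5 of 13945 protein-coding genes, ahead of Dll (rank 12), nub (13), inv (16), ap (26), sd (35) and vg (40). Scores in hth ranged from 1.34 to 2.27, and the nearest edges of the Psi peaks lay from 5.22 to 127 kb from the start. The highest and widest (10601504 to 10607153, 2.27, 20 GATC sites) lay 32.4 to 38.1 kb into the gene and held a Myc peak (10601776 to 10602904, 2.71). Another Psi peak (10585992 to 10589980, 2.12) held a second Myc peak (10586436 to 10589530, 2.03). The third Myc peak (10579403 to 10580719, 2.71) coincided in intron 6 with a Psi peak (10579508 to 10581149, 2.03) and an RNA Pol peak (10579838 to 10580719, 0.92), the shared hth site printed above. The remaining RNA Pol peaks in hth were also low, at 10526224 to 10530576 (1.06) and 10592826 to 10594098 (0.91), and 73.8% to 90.9% of the RNA Pol list outscored the 3 of them.

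tsh lies on the plus strand of chromosome 2L from 21828593 to 21837011 (FBgn0003866, 8.42 kb). RNA Pol marked its start (21827722 to 21829688, 1.08), and 71.4% of the RNA Pol list scored higher. It was the one gene with no Psi peak within 10 kb, and the nearest began 42.4 kb away. A low Myc peak (21840216 to 21840787, 1.53) lay 3.20 kb past its 3′ end, and 98.5% of the Myc list scored higher. The gene holds 23 GATC sites, or 2.73 per kb, beside 2.79 per kb over the chromosome arms. nub, which had 7 Psi peaks, holds 95 sites, or 2.35 per kb. The part of GATC sites in the lack of a Psi peak at tsh was not tested. The lists keep only regions that passed the FDR of 1%, so a Psi signal below it cannot be read from them.

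The share of gene length in Psi peaks was high beside other genes with a peak for most of the set, but not for pdm2 (1.64%) and tsh (0%). Its median over the 10 genes was 42.9%, from 0% at tsh to 82.7% at Dll. Over the 875 protein-coding genes that a Psi peak overlapped the median was 13.8%, and over the 305 of these at least as long as the median of the set it was 6.12%. Of 907 protein-coding genes of that length, sd ranked 4, inv 5, nub 7, hth 41 and pdm2 277 by this share. For RNA Pol the median over the 10 genes was 8.97%, against 15.1% over 1555 protein-coding genes with a peak and 5.08% over 307 long ones. For Myc it was 0%, since 6 genes had no Myc peak in them, against 17.2% over 2091 and 3.43% over 311. The medians of the set include genes with no peak, and those of the other genes do not. They also include vg, ap, Dll, en and tsh, which are shorter than 22.3 kb and so lie outside the class of long genes. Between RNA Pol and Psi the order of the 10 genes differed. Dll led for Psi and stood at 13.8% for RNA Pol, where sd (35.8%) and vg (34.4%) led.

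**Figure D3:**
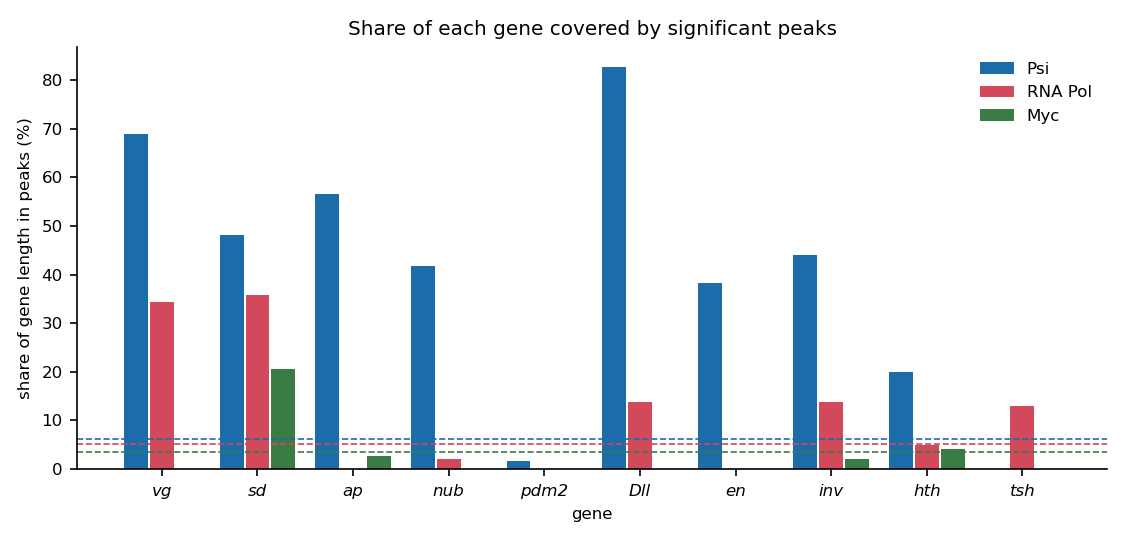
Share of each gene's length (%) inside peaks of Psi (blue), RNA Pol (red) and Myc (green); dashed lines in the same colours are medians over protein-coding genes of at least 22.3 kb that a peak of the list overlapped (6.12%, 5.08% and 3.43%). The Psi bars of vg, sd, ap, nub, Dll, en, inv and hth rise above the Psi line, from 19.99% at hth to 82.7% at Dll, while pdm2 (1.64%) and tsh (0%) do not. vg, ap, Dll, en and tsh are shorter than 22.3 kb, so the lines are not medians of their length class.

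**Figure D4:**
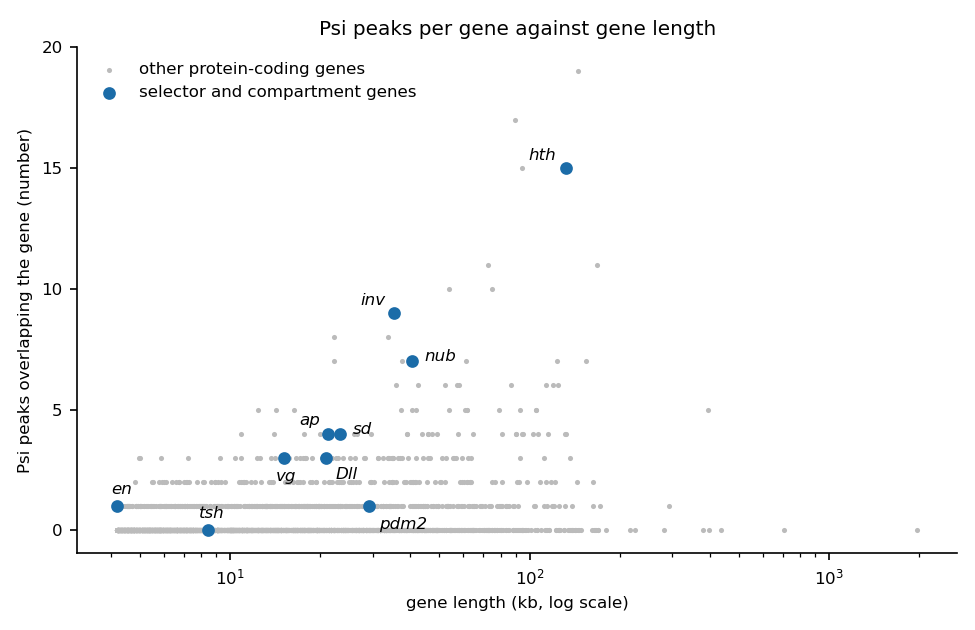
Number of Psi peaks overlapping each protein-coding gene at least as long as en (4031 genes) against gene length in kb on a log scale; blue points are the 10 genes of the set and grey points are the others. hth (15 peaks), inv (9) and nub (7) lie high among genes of their length, whereas pdm2 (1), en (1) and tsh (0) lie at the bottom of the plot. Most of the other genes also lie there, since 18.7% of the 4031 had a Psi peak within 1 kb.

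The Psi peaks at these genes were mostly intronic. The outermost start of none of the 10 genes lay in a Psi peak, which is near the background of 1.57% of protein-coding genes. Over all protein-coding genes that Psi bound, 219 of 1104 (19.8%) had it in a Psi peak. From the start to the nearest Psi peak was 0.724 kb (pdm2) to 5.22 kb (hth) in the 9 bound genes. Of the 47 Psi peaks overlapping the genes, 44 lay more than 2 kb from the outermost start, with a median of 14.6 kb. Of the bases of these peaks, 86.4% were intronic, 5.77% untranslated exon, 3.64% coding and 4.17% outside the gene, and 28 of the 47 lay wholly in introns. The genes themselves are 83.2% intron, 10.6% untranslated exon and 6.23% coding, so the intronic share of the peaks was close to that of the genes.

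RNA Pol peaks had another layout. They held the outermost start of 3 genes (nub, Dll and tsh), against 6.88% of protein-coding genes. Among all protein-coding genes bound by RNA Pol, 959 of 1897 (50.6%) had the start in a peak, against 3 of 7 here. Of the bases of the 16 RNA Pol peaks overlapping the genes, 68.0% were intronic, 13.7% untranslated exon and 17.4% outside the gene. No outermost start lay in a Myc peak, against 9.48% of protein-coding genes. Among all protein-coding genes bound by Myc, 1322 of 2675 (49.4%) had it in a Myc peak, against 0 of 5 here. The 7 Myc peaks overlapping the genes were 94.5% intronic. When any annotated start counted, sd joined in every list, through starts inside the gene.

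How firmly each gene was called differed. With peaks at an FDR of at most 0.1%, Psi bound 7 genes (not pdm2 and en), against 5.90% of protein-coding genes. RNA Pol bound 5 (vg, sd, Dll, inv and hth), against 8.91%, and Myc 3 (sd, Dll and hth), against 12.6%. These shares are of genes of all lengths, and long genes were not counted apart at this FDR. Each RNA Pol peak at the start of nub, Dll or tsh had an FDR of 0.00341 and spanned 5 GATC sites, so that no outermost start stayed in an RNA Pol peak. The RNA Pol peaks over starts inside sd stayed. In all lists, the peaks with an FDR above 0.1% spanned 4 or 5 GATC sites, and those at or below it spanned 5 or more. The number of GATC sites therefore moved with the FDR, and its part in these losses was not tested.

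Psi and Myc, whose Dam-only samples were separate, met at a part of the sites. Of the 54 Psi peaks at the genes, 11 (20.4%) overlapped a Myc peak, against 42.2% of the whole Psi list. One of the 11, in hth, only touched it by 1 bp at a shared GATC site. Of the 12 Myc peaks, 9 (75.0%) overlapped a Psi peak, against 36.4% of the whole Myc list. The exceptions were the Myc peaks in inv, past tsh and past sd. No Myc peak held the outermost start of a gene of the set. Of the 1034 Myc peaks of the list holding no outermost start of a protein-coding gene, 50.1% overlapped a Psi peak by more than 1 bp. Psi peaks covered a median of 42.9% of these genes, and the part of this cover in the overlap was not tested. Between Myc and RNA Pol, 7 of the 12 Myc peaks (58.3%) overlapped, against 39.6% of the whole Myc list, and 6 of the 19 RNA Pol peaks (31.6%), against 50.3% of the whole RNA Pol list. At the genes, 18 of 54 Psi peaks (33.3%) had bases in common with RNA Pol peaks, against 41.6% of the whole Psi list. One of the 18, in hth, did so by 1 bp only. In the other direction the share was 15 of 19 RNA Pol peaks (78.9%), against 46.9% of the whole RNA Pol list. The part of the Psi cover in this was not tested. Because Psi and RNA Pol share a Dam-only sample, these shares record positions only.

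The centres of the peaks were searched on both strands for letters read by members of the set, by Exd, the partner of Hth, and by Myc. These letters were chosen with earlier results of these data known. GGAATG (Sd and other TEAD proteins) was in 12 of 52 Psi centres (23.1%, against 15.6% of the whole list), 6 of 19 RNA Pol centres (31.6% against 13.1%) and 3 of 12 Myc centres (25.0% against 14.4%). Peaks narrower than the 300 bp window were left out, which removed 2 Psi peaks at the genes. CACGTG (the E-box of Myc and Max) was in none of the member centres, against 3.06%, 2.88% and 8.60% of the lists. TGATNNAT (Exd with Hox proteins) was in 10 Psi centres (19.2% against 17.6%), 1 RNA Pol centre (5.26% against 17.0%) and 2 Myc centres (16.7%, against 290 of 1931 in the list). TAATTA (homeodomain proteins) was in 5 Psi centres (9.62% against 16.7%), 3 RNA Pol centres (15.8% against 17.5%) and no Myc centre (against 14.6%). ATGCAAAT (POU proteins) was in 2 Psi centres (3.85% against 3.30%), no RNA Pol centre (against 3.71%) and 1 Myc centre (8.33% against 2.64%). The RNA Pol and Myc centres overlap Psi centres in part, so these counts are not separate evidence. GATC itself was in 51.9% of the Psi centres (against 68.8% of the list), 31.6% of the RNA Pol centres (against 51.2%) and 66.7% of the Myc centres (against 62.9%). In the 250 bp before the start, GGAATG was found at 2 of the 10 genes (against 9.02% of all protein-coding genes), TGATNNAT at 2 (against 16.9%), TAATTA at 1 (against 19.4%), ATGCAAAT at 1 (against 3.21%), CACGTG at none (against 2.86%) and GATC at 2 (against 38.1%).

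Genes that work with the selector genes were read in the same way. Of 50 such genes, 22 were bound by Psi, 17 by RNA Pol and 16 by Myc, 12 by all and 24 by none. Of all protein-coding genes, Psi bound 7.92%, RNA Pol 13.6% and Myc 19.2%, and 3.69% were bound by all. Of those at least as long as en, the shares were 18.7%, 25.8% and 30.2%. For genes of at least 22.3 kb they were 34.8%, 35.6% and 36.9%, and 19.5% by all. The RNA Pol and Myc counts thus lie near the shares of long genes. The 50 genes were not matched by length, and they too were chosen with earlier results of these data known. Among 7 partners of the selector proteins, Bx, the LIM-only antagonist of Ap (Psi 2.45, RNA Pol 1.53, Myc 3.91), and Tgi, a corepressor of Sd (2.20, 1.16 and 3.30), were bound in every list. The partner genes Chi, Ssdp, exd and yki had no peak. Among 7 dorsal-ventral genes, Psi bound 4, RNA Pol 3 and Myc 4. Bound in every list were fng, the glycosyltransferase that modifies Notch (1.86, 1.29 and 3.00), the Notch ligand gene Dl (2.25, 1.51 and 3.79) and caps (2.30, 0.93 and 2.97). wg had no peak of any list. Of 5 anterior-posterior genes, Psi bound 4, RNA Pol 3 and Myc 2, with hh, the ligand gene that En activates (2.32, 1.38 and 2.39), and its receptor gene ptc (1.73, 1.51 and 3.77) in every list.

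Of 10 further hinge and pouch genes, Psi bound 4, RNA Pol 5 and Myc 3, with bowl (2.57, 1.67 and 3.77), dve (2.15, 0.92 and 3.42) and zfh2 (1.77, 1.01 and 2.08) in every list. Of 8 notum genes, Psi bound 4, RNA Pol none and Myc 2, and toe held the highest score of both Psi (1.89) and Myc (2.31). Of 10 leg genes, each list bound 2, and al alone was in all (2.03, 1.11 and 1.40). Besides nub and pdm2, the POU gene pdm3 was bound in every list (1.77, 1.24 and 2.10), whereas vvl and acj6 had no peak. Of 7 marker genes of the wing disc epithelium, Psi bound 5, RNA Pol 5 and Myc 2, and vg, nub, ap and Dll among them belong to the set. No gene of the 5 haemocyte, 4 muscle and 4 fat body markers had a peak. For comparison, Psi bound 7.92%, RNA Pol 13.6% and Myc 19.2% of all protein-coding genes. Of 5 myoblast markers, 2 were bound in each list, of 4 tracheal markers 1 by Psi and 2 by RNA Pol, of 4 neuronal markers 1 by RNA Pol and 2 by Myc, and of 6 eye and leg disc markers 1 by Psi, 2 by RNA Pol and 4 by Myc.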

How the data were processed

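Samples were grouped by title. A description label that reads as control or RNAi conflicts with the titles and was not used. The authors aligned reads to BDGP6 with Bowtie2 in damidseq_pipeline, took a normalised log2 ratio over Dam alone, averaged it over 3 replicates and called peaks at an FDR of 1%. Tool versions are not given in the sources here. Deposited for each peak are its position, a score and an FDR, all by the authors. All peak edges fell on GATC sites of the RefSeq sequence. The read depth is unknown from the lists, and its effect on which peaks were called was not tested.

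Gene models were those of Ensembl release 115 (BDGP6 version 54), and all 10 symbols matched. A gene runs from the first to the last base of its transcripts. A gene was bound when a peak lay within 1 kb, as in the study. Genes named are the 10 members, other protein-coding genes under their peaks, and the genes of each context list bound in every list (or, with none, the highest scoring). Long non-coding RNA genes under the peaks were added after the values were seen. Examples without a peak or with more Psi peaks than the members were also chosen after their values were seen. Members, context lists and motifs were chosen with earlier results of these data known. The counting of distances and overlaps was tested on simulated data. Alternatives were other distances, stricter peaks, other start sites, merged peaks and larger overlaps, and a background of long genes added after the data were seen. Calculations used Python 3.11.15 and figures matplotlib 3.10.9.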

Additional observations from a re-analysis of the deposited data

How the results depend on the processing

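Of 66 alternative values over 16 results, 46 stayed within 1.5 times of the value reported, among them the 9 genes bound by Psi under each distance tried and 7 or 8 with stricter peaks. The others were these. The count of genes with a start in a Psi peak went from 0 to 1 with the start of the longest-coding-sequence transcript, with any annotated start, or with a start within 1 kb of the peak, and that for Myc from 0 to 1 with the first 2 of these. With 10 kb added on both sides, the median share in Psi peaks was 27.5% and in Myc peaks 2.83%. At an FDR of at most 0.1%, the RNA Pol peaks at the genes fell to 11 and the outermost starts in RNA Pol peaks to 0. The median share in RNA Pol peaks fell to 2.13% and the genes bound by Myc to 3 at this FDR. Genes bound by Myc were 8 within 10 kb and 2 with peaks at or above the median score of the list, and 7 Myc peaks overlapped a gene. Psi peaks on RNA Pol peaks, a record of positions since these lists share a Dam-only sample, went from 18 to 10 with an overlap of at least 50% and to 10 at the stricter FDR. Psi peaks on Myc peaks went from 11 to 7 under each of these. Myc peaks on RNA Pol peaks went from 7 to 3 at the stricter FDR and to 3 for peaks that overlap a gene.

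Leaving out a replicate was not run, because the lists were called on averages. No paired analysis was possible because no result comes from values per sample. Small counts, such as 3 or 5 genes, can shift with single peaks, and peaks do not show which gene a site serves.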
